A study of Homo sapiens with 9 samples.

Results

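The RNAs described here are those encoded by mitochondrial DNA, measured in the THP-1 line, which derives from a human monocytic leukaemia. They were taken as every row of the count table whose symbol begins with MT-, which gave 37 of 30000 rows, made up of 13 mRNAs, 2 rRNAs and 22 tRNAs. In the PKM2_KD_Ecto group (n = 3 libraries) the THP-1 cells had received ectosomes from Huh7 hepatoma cells carrying an shRNA against PKM2, an isoform of pyruvate kinase. Ectosomes are vesicles shed directly from the cell surface, and they can carry RNA and protein. In the Scramble_Ecto group (n = 3) the ectosomes came from Huh7 cells with a scramble shRNA, and in the Ctrl group (n = 3) the labels name no ectosomes. The labels attach the shRNA to the sample without naming the cell that carried it, and it is read here as made in the Huh7 donor cells. On that reading the PKM gene in THP-1 cells checks no label, and RNA brought in by ectosomes and RNA made by the recipient cells cannot be told apart in these libraries. The labels used here give no ectosome dose, no incubation time and no account of whether the 3 libraries of a group came from separate cultures, so the spread behind the p-values may be technical.

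Human mitochondrial DNA is a small circle with almost no spacer between its genes, and each of its strands is transcribed into long precursors that cover many genes. The tRNAs lie between the other genes like punctuation: nucleases cut them out of the precursor, and the mRNAs and rRNAs on either side are set free by the same cuts. The heavy-strand transcript gives both rRNAs, 14 tRNAs and all mRNAs except MT-ND6, whereas the light-strand transcript gives MT-ND6 and 8 tRNAs. The mRNAs encode core subunits of the respiratory complexes and of the ATP synthase, all other mitochondrial proteins being made from nuclear genes. MT-ND4L with MT-ND4, and MT-ATP8 with MT-ATP6, are not separated by a tRNA: each pair overlaps and stays on one mature bicistronic mRNA.

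The sequences that the results turn on are given 5′ to 3′ from the GENCODE release 29 transcripts on the GRCh38 build, and show how closely the counted features adjoin. MT-ND4L lies at chrM:10470-10766 on the plus strand, and the capitals at its end are the 7 bases, chrM:10760-10766, that it shares with MT-ND4. They hold the ATG that opens MT-ND4 and, after it, the TAA that closes MT-ND4L. MT-ATP8 lies at chrM:8366-8572 on the plus strand, and its capitals are the 46 bases, chrM:8527-8572, shared with MT-ATP6.
MT-ND4L: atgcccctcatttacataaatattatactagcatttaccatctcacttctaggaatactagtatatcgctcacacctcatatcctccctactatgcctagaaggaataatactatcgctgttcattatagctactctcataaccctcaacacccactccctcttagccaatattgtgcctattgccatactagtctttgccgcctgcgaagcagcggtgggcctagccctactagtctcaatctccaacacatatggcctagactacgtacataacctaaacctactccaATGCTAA
MT-ATP8: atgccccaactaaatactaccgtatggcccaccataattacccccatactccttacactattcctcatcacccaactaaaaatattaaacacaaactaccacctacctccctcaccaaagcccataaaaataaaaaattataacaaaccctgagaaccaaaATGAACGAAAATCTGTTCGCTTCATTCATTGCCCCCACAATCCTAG
The tRNAs of histidine, serine and leucine follow MT-ND4 without a gap at chrM:12138-12336 on the plus strand, and the capitals mark MT-TS2, with MT-TH before it and MT-TL2 after it.
MT-TH, MT-TS2 and MT-TL2: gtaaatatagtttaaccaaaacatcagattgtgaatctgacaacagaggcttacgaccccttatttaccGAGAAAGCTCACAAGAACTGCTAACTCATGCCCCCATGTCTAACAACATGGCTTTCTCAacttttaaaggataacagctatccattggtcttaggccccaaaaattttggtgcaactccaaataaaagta
The valine tRNA MT-TV fills the space between both rRNAs at chrM:1602-1670 on the plus strand, and the threonine tRNA MT-TT follows MT-CYB at chrM:15888-15953 on the plus strand.
MT-TV: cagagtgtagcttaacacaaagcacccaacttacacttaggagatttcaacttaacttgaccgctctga
MT-TT: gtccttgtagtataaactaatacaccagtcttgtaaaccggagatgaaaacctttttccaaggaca
The tyrosine and cysteine tRNAs are neighbours on the minus strand, MT-TY at chrM:5826-5891 and MT-TC at chrM:5761-5826, and the capital marks the base they share.
MT-TY: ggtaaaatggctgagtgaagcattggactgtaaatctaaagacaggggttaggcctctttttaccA
MT-TC: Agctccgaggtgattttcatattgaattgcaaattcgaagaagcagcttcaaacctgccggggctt
Mature tRNAs also receive a CCA end after cleavage, which is not encoded in these sequences.

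Libraries held 17744587 to 23864381 counts over all rows, of which 762959 to 1028407 fell on mitochondrial RNAs, so that the mRNA and rRNA rows are deeply counted and the tRNA rows mostly are not. Ctrl replicate 3 stood apart from the other libraries of its group: a chi-square over genes, divided by its degrees of freedom, gave 43.6 and 40.1 against Ctrl replicates 1 and 2. Those replicates gave 4.69 between themselves, and pairs within the other groups gave 2.44 to 6.50. Results that rest on Ctrl are therefore also given without it for the main counts and for some single rows. All 8 markers of THP-1 monocytic cells had reads in every group, with a summed level of 1695 to 1784 CPM (counts scaled to a common library size) in PKM2_KD_Ecto, 1206 to 1249.6 CPM in Scramble_Ecto and 802 to 889 CPM in Ctrl. The sum does not stand for each marker: 5 of the 8 rose and none fell in PKM2_KD_Ecto vs Scramble_Ecto, 5 rose and 2 fell (LYZ and MPO) in PKM2_KD_Ecto vs Ctrl, and 3 rose and 4 fell in Scramble_Ecto vs Ctrl. Of all tested rows, 31.4% rose and 30.3% fell in PKM2_KD_Ecto vs Scramble_Ecto. The shares were 27.0% and 26.7% in PKM2_KD_Ecto vs Ctrl, and 34.6% and 33.2% in Scramble_Ecto vs Ctrl. Of 19 hepatocyte transcripts, which mark the cell type the ectosomes came from, 11 were in the table and 2 exceeded 1 CPM in each group, and their summed level was 41.5 to 48.1 CPM in PKM2_KD_Ecto, 7.76 to 8.11 CPM in Scramble_Ecto and 3.86 to 8.74 CPM in Ctrl. SERPINA1, which monocytes also express, made up most of the PKM2_KD_Ecto sum, with a mean of 37.4 CPM there, 3.53 CPM in Scramble_Ecto and 2.01 CPM in Ctrl. Albumin (ALB) averaged 0.448 CPM in PKM2_KD_Ecto, 0.113 CPM in Scramble_Ecto and 0.111 CPM in Ctrl, and TTR and HNF4A had no reads in PKM2_KD_Ecto or Ctrl. The part of these shifts in the results below was not tested.

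Mitochondrial RNAs made up 4.699, 4.67 and 4.900% of counts in PKM2_KD_Ecto libraries, 4.31, 4.53 and 4.27% in Scramble_Ecto libraries and 4.42, 4.56 and 4.300% in Ctrl libraries. Every PKM2_KD_Ecto library lay above every library of both other groups, which overlapped each other. The mean share was 4.76% ± 0.125 (SD, n = 3) in PKM2_KD_Ecto, 4.37% ± 0.140 in Scramble_Ecto and 4.42% ± 0.128 in Ctrl, a difference of 0.385 percentage points from Scramble_Ecto and 0.332 from Ctrl (exact two-sided permutation p = 0.1 each, the smallest that 3 against 3 libraries allow; 0.15 after Benjamini-Hochberg adjustment over the 18 single-value comparisons made). Scramble_Ecto differed from Ctrl by -0.0529 percentage points (exact permutation p = 0.6).

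The order of the groups in this total depended on how libraries were scaled. Trimmed-mean (TMM) factors, which set the libraries to a common middle of all genes, were 1.03 to 1.05 in PKM2_KD_Ecto, 0.908 to 0.930 in Scramble_Ecto and 1.02 to 1.10 in Ctrl. After TMM the mitochondrial RNAs summed to 46091 ± 1472 CPM in PKM2_KD_Ecto, 47786 ± 1932 CPM in Scramble_Ecto and 41946 ± 351 CPM in Ctrl (SD, n = 3 each). With library totals alone the median log2 fold change of all 18437 tested rows was 0.20 in PKM2_KD_Ecto vs Scramble_Ecto, against 0.03 with TMM. In Scramble_Ecto vs Ctrl the median was -0.21 with totals and -0.01 with TMM, and in PKM2_KD_Ecto vs Ctrl it was -0.04 with totals and -0.01 with TMM. Values below use TMM unless they are said to use totals, and the shift of about this size between the scalings runs through every comparison with Scramble_Ecto. In bulk libraries, fewer cells and less RNA per cell cannot be told apart.

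Per kilobase of gene, MT-CO1, which encodes the catalytic subunit of cytochrome c oxidase, had the highest TMM level of the mRNA and rRNA rows in all 3 groups, with a mean of 7353 CPM per kb in PKM2_KD_Ecto, 7490.0 in Scramble_Ecto and 6509 in Ctrl. MT-ND4, a proton-pumping subunit of complex I, averaged 4864 CPM per kb in PKM2_KD_Ecto and ranked 3 of 37 there, against 3623 in Scramble_Ecto and 3506 in Ctrl, where it ranked 6 in each. MT-ND4L, a small membrane subunit of the same complex, averaged 4313 CPM per kb in PKM2_KD_Ecto, 2561 in Scramble_Ecto and 2874 in Ctrl. MT-RNR1, the rRNA of the small mitochondrial ribosomal subunit, averaged 559 CPM per kb in PKM2_KD_Ecto, 709 in Scramble_Ecto and 749 in Ctrl. MT-RNR2, the rRNA of the large subunit, averaged 5201 CPM per kb in PKM2_KD_Ecto, 6199.9 in Scramble_Ecto and 4676 in Ctrl. The sources used here do not state whether rRNA was depleted or poly(A) RNA selected, which sets the level of rRNA and tRNA rows.

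**Figure D1:**
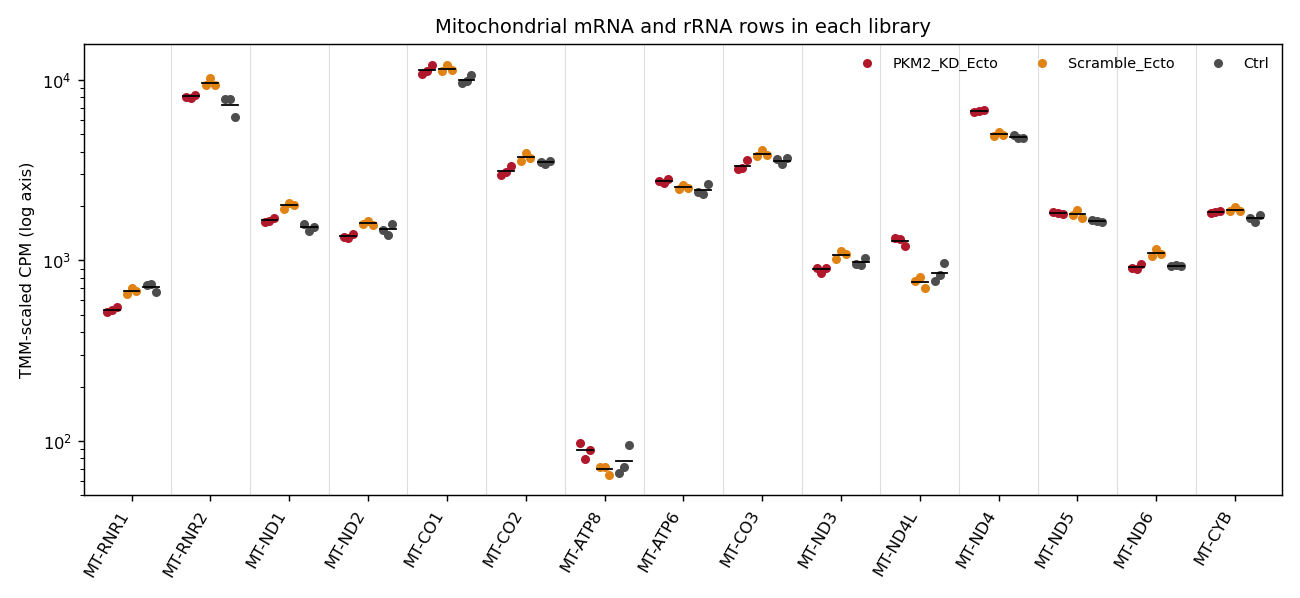
TMM-scaled level (CPM, log axis) of the 15 mRNA and rRNA rows in each library, with PKM2_KD_Ecto, Scramble_Ecto and Ctrl from left to right in each panel; points are libraries and black bars are group means. MT-ND4L and MT-ND4 are highest in the 3 PKM2_KD_Ecto libraries, and MT-RNR1 is lowest in them.

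Of the 37 rows, 30 had enough counts to be tested, and the 7 that did not were the tRNAs MT-TF, MT-TI, MT-TQ, MT-TM, MT-TA, MT-TS1 and MT-TK, each with at most 12 counts in a library. In PKM2_KD_Ecto vs Scramble_Ecto, 4 of the 30 rose and 19 fell at an adjusted p under 0.05 (edgeR quasi-likelihood test, Benjamini-Hochberg adjustment over 18437 rows), where 31.4% of all tested rows rose and 30.3% fell. Their median log2 fold change was -0.26, against 0.03 over all rows. With library totals 6 rose and 8 fell, against 38.2% and 23.5% of all rows, and the median was -0.08 against 0.20. In PKM2_KD_Ecto vs Ctrl, 4 rose and 6 fell, where 27.0% of all rows rose and 26.7% fell, with a median of 0.02 against -0.01. Library totals gave 3 higher and 8 lower there, against 25.5% and 28.6% of all rows. Without Ctrl replicate 3, 9 rose and 5 fell, against 29.1% and 28.6%. In Scramble_Ecto vs Ctrl, 8 rose and 1 fell, where 34.6% of all rows rose and 33.2% fell, with a median of 0.18 against -0.01. That balance depended on the scaling, since library totals gave 5 higher and 5 lower, against 27.8% and 41.4% of all rows, with a median of -0.02 against -0.21. It also depended on Ctrl replicate 3, without which 16 rose and 1 fell, where 36.9% of all rows rose and 34.7% fell. In PKM2_KD_Ecto vs Scramble_Ecto, 5 of the 30 rows were higher and 19 lower in all 3 libraries than in all 3 of the other group, beside 37.4% and 37.1% of all rows. The same count was 10 higher and 10 lower in PKM2_KD_Ecto vs Ctrl, beside 30.7% and 29.8%, and 13 higher and 1 lower in Scramble_Ecto vs Ctrl, beside 36.7% and 34.6%. With all 9 libraries, the falls counted in both PKM2_KD_Ecto comparisons include MT-TW, which passed the filter on low counts only through the other groups. The 3 comparisons share libraries pair by pair, so they are not independent of each other.

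The bicistronic mRNA of MT-ND4L and MT-ND4 carried the rises with the smallest adjusted p in PKM2_KD_Ecto vs Scramble_Ecto. MT-ND4L had 1338, 1309 and 1196 CPM in PKM2_KD_Ecto, 767, 808 and 707 CPM in Scramble_Ecto and 764, 833 and 963 CPM in Ctrl. MT-ND4, at chrM:10760-12137 on the plus strand, had 6619, 6710.0 and 6779.6 CPM in PKM2_KD_Ecto, 4893, 5164 and 4921 CPM in Scramble_Ecto and 4946, 4773 and 4772 CPM in Ctrl. For both genes the PKM2_KD_Ecto libraries lay above all 6 others, while Scramble_Ecto and Ctrl overlapped. MT-ND4L was 1.68-fold higher in PKM2_KD_Ecto than in Scramble_Ecto (log2 fold change 0.75, SE 0.10, adjusted p = 8.33e-05). Against Ctrl it was 1.501-fold higher (log2 fold change 0.59, SE 0.10, adjusted p = 0.000588). MT-ND4 was 1.34-fold higher than in Scramble_Ecto (log2 fold change 0.42, SE 0.07, adjusted p = 0.000343). Relative to Ctrl it was 1.39-fold higher (log2 fold change 0.47, SE 0.07, adjusted p = 0.000217). Both rises were called with library totals, with scaling to the mitochondrial total, and in each of the 6 fits that left out a library of the groups compared. Between Scramble_Ecto and Ctrl neither passed with TMM, at -0.17 for MT-ND4L (adjusted p = 0.161) and 0.05 for MT-ND4 (adjusted p = 0.561). With totals both fell there, by 0.37 (adjusted p = 0.00496) and by 0.16 (adjusted p = 0.0422) on the log2 scale.

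The small reading frame was also set against its partner on the same mRNA within each library. MT-ND4L held 20.2, 19.5 and 17.6% of the counts of MT-ND4 in PKM2_KD_Ecto libraries, 15.7, 15.7 and 14.4% in Scramble_Ecto libraries and 15.4, 17.5 and 20.2% in Ctrl libraries. The ratio was higher in PKM2_KD_Ecto than in Scramble_Ecto without overlap (log2 difference 0.33, exact permutation p = 0.1), whereas the Ctrl libraries overlapped both (log2 difference 0.12 for PKM2_KD_Ecto and -0.21 for Scramble_Ecto, exact permutation p = 0.4 and p = 0.3). Leaving out 1 library moved the difference from Ctrl to between 0.02 and 0.22 for PKM2_KD_Ecto and to between -0.30 and -0.11 for Scramble_Ecto. The second bicistronic mRNA, which encodes 2 membrane subunits of the ATP synthase, gave smaller differences. MT-ATP8 had 97.7, 79.4 and 89.3 CPM in PKM2_KD_Ecto, 72.03, 71.6 and 64.8 CPM in Scramble_Ecto and 66.4, 71.3 and 94.8 CPM in Ctrl. MT-ATP6, the proton-channel subunit at chrM:8527-9207 on the plus strand, had 2739.8, 2689 and 2822 CPM in PKM2_KD_Ecto, 2491, 2633 and 2509 CPM in Scramble_Ecto and 2404, 2332 and 2638 CPM in Ctrl. MT-ATP8 was higher in PKM2_KD_Ecto than in Scramble_Ecto (log2 fold change 0.35, SE 0.13, adjusted p = 0.0351). It was called in only 1 of the 6 fits without a library. MT-ATP6 did not pass in that comparison (log2 fold change 0.11, SE 0.08, adjusted p = 0.222) except with library totals (log2 fold change 0.29, SE 0.06, adjusted p = 0.00267). Against Ctrl neither passed in PKM2_KD_Ecto, at 0.20 for MT-ATP8 (adjusted p = 0.225) and 0.16 for MT-ATP6 (adjusted p = 0.0966), and the Ctrl libraries overlapped those of PKM2_KD_Ecto for MT-ATP8. Without Ctrl replicate 3 both rose there, MT-ATP8 with adjusted p = 0.00075 and MT-ATP6 with adjusted p = 0.00335. As a share of MT-ATP6, MT-ATP8 counts were 3.56, 2.95 and 3.17% in PKM2_KD_Ecto, 2.89, 2.72 and 2.58% in Scramble_Ecto and 2.76, 3.06 and 3.59% in Ctrl, with a log2 difference of 0.24 between PKM2_KD_Ecto and Scramble_Ecto (exact permutation p = 0.1). How reads in the shared bases were assigned was not stated in the sources used here. The 2 rows of each pair are therefore not fully separate measurements, most of all MT-ATP8, which shares 46 of its 207 bases.

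Of all tested rows, 31.4% rose and 30.3% fell in PKM2_KD_Ecto vs Scramble_Ecto with TMM, and 38.2% and 23.5% with totals. Over the 4 bicistronic rows, 3 rose in that comparison and none fell with TMM, with a median of 0.39, and with totals 4 rose. Of the other 9 mRNAs none rose and 6 fell with TMM, with a median of -0.24, and with totals 1 rose, MT-ND5 (log2 fold change 0.19, SE 0.07, adjusted p = 0.0357), and none fell, with a median of -0.07. Leaving out 1 library left 2 to 6 falls with TMM, beside 26.4% to 27.2% of all rows. The fewest were without PKM2_KD_Ecto replicate 2 (2) and without PKM2_KD_Ecto replicate 1 or Scramble_Ecto replicate 2 (3 each). The fall of these mRNAs depended on the scaling, whereas MT-ND4L and MT-ND4 rose with both scalings. Against Ctrl, PKM2_KD_Ecto gave no called mRNA other than MT-ND4L and MT-ND4 with TMM, with values from -0.16 for MT-CO2 to 0.20 for MT-ATP8. With totals MT-CO2 fell as well (-0.19, adjusted p = 0.0359). Without Ctrl replicate 3, 6 of the 13 mRNAs rose in that comparison, beside 29.1% of all rows.

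The complex I mRNAs other than MT-ND4L and MT-ND4 gave small differences. MT-ND1, the subunit at the ubiquinone site, had 1639, 1656 and 1724 CPM in PKM2_KD_Ecto, 1937, 2077 and 2038 CPM in Scramble_Ecto and 1595, 1459.7 and 1532 CPM in Ctrl. The 3 Scramble_Ecto libraries lay above all 6 others, and PKM2_KD_Ecto lay above Ctrl without overlap. MT-ND1 was lower in PKM2_KD_Ecto than in Scramble_Ecto (log2 fold change -0.27, SE 0.07, adjusted p = 0.00801), and it was higher in Scramble_Ecto than in Ctrl (log2 fold change 0.40, SE 0.07, adjusted p = 0.000586). The rise of MT-ND1 in Scramble_Ecto over Ctrl was also called with totals (log2 fold change 0.20, SE 0.06, adjusted p = 0.0178). Its fall in PKM2_KD_Ecto from Scramble_Ecto was not called with totals (-0.10, adjusted p = 0.209). Between PKM2_KD_Ecto and Ctrl it was not called with TMM (0.13, adjusted p = 0.157). MT-ND2, another membrane subunit, had 1339, 1338 and 1408 CPM in PKM2_KD_Ecto, 1586, 1658 and 1579 CPM in Scramble_Ecto and 1468, 1389 and 1597 CPM in Ctrl, and MT-ND3, a small one, had 910.0, 852 and 909.6 CPM in PKM2_KD_Ecto, 1014, 1133 and 1087 CPM in Scramble_Ecto and 960.1, 948 and 1037 CPM in Ctrl. Both were lower in PKM2_KD_Ecto than in Scramble_Ecto, MT-ND2 by 0.24 (adjusted p = 0.0197) and MT-ND3 by 0.27 (adjusted p = 0.0102) on the log2 scale, and neither was called with totals. MT-ND5, the longest complex I mRNA, had 1853, 1827 and 1796 CPM in PKM2_KD_Ecto, 1795, 1906 and 1726 CPM in Scramble_Ecto and 1668, 1658 and 1632 CPM in Ctrl, and its PKM2_KD_Ecto and Scramble_Ecto libraries overlapped (log2 fold change 0.01, SE 0.07, adjusted p = 0.889).

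Cytochrome c oxidase, or complex IV, takes its catalytic core from MT-CO1, MT-CO2 and MT-CO3. MT-CO1, at chrM:5904-7445 on the plus strand, had 10717, 11133 and 12166 CPM in PKM2_KD_Ecto, 11229, 12034 and 11386 CPM in Scramble_Ecto and 9644, 9802 and 10666 CPM in Ctrl. The PKM2_KD_Ecto and Scramble_Ecto libraries overlapped (log2 fold change -0.03, SE 0.08, adjusted p = 0.795). The rise of MT-CO1 in Scramble_Ecto vs Ctrl was small (log2 fold change 0.20, SE 0.08, adjusted p = 0.0482), and with totals its log2 fold change was -0.00198 (adjusted p = 0.981). It was called in 1 of 6 fits without a library, the one without Ctrl replicate 3. MT-CO2, which carries the first copper centre, had 2971, 3107 and 3324 CPM in PKM2_KD_Ecto, 3573, 3932 and 3670.1 CPM in Scramble_Ecto and 3508, 3418 and 3551 CPM in Ctrl. MT-CO3, the remaining core subunit, had 3203, 3256 and 3582 CPM in PKM2_KD_Ecto, 3792, 4067 and 3851 CPM in Scramble_Ecto and 3628, 3401 and 3679 CPM in Ctrl. Scramble_Ecto exceeded PKM2_KD_Ecto in every library for both, and the fall in PKM2_KD_Ecto was 0.25 for MT-CO2 (adjusted p = 0.0161) and 0.22 for MT-CO3 (adjusted p = 0.0297) on the log2 scale with TMM, and not called with totals. MT-CYB, cytochrome b of complex III, had 1820.4, 1856 and 1874 CPM in PKM2_KD_Ecto, 1867, 1970.5 and 1888 CPM in Scramble_Ecto and 1726, 1631 and 1783 CPM in Ctrl and was not called in any of the 3 comparisons with all 9 libraries (-0.05 in PKM2_KD_Ecto vs Scramble_Ecto, adjusted p = 0.604). Without Ctrl replicate 3 it rose over Ctrl in PKM2_KD_Ecto (adjusted p = 0.0454) and in Scramble_Ecto (adjusted p = 0.00734).

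MT-ND6, a complex I subunit at chrM:14149-14673 on the minus strand, is the one mRNA of the light-strand transcript. It had 904, 891 and 951 CPM in PKM2_KD_Ecto, 1051, 1155 and 1085 CPM in Scramble_Ecto and 926, 943 and 927 CPM in Ctrl, and the Scramble_Ecto libraries lay above all others. It was lower in PKM2_KD_Ecto than in Scramble_Ecto (log2 fold change -0.26, SE 0.07, adjusted p = 0.00890). It was higher in Scramble_Ecto than in Ctrl (log2 fold change 0.23, SE 0.07, adjusted p = 0.0137), and neither change was called with library totals. Set against the other mRNAs of the same library, which needs no scaling, MT-ND6 made 2.57, 2.49 and 2.53% of their counts in PKM2_KD_Ecto libraries, 3.002, 3.08 and 3.06% in Scramble_Ecto libraries and 2.86, 2.97 and 2.73% in Ctrl libraries. No pair of groups overlapped, and the log2 difference was -0.27 in PKM2_KD_Ecto vs Scramble_Ecto, -0.18 in PKM2_KD_Ecto vs Ctrl and 0.10 in Scramble_Ecto vs Ctrl (exact permutation p = 0.1 each). Whether counting used the strand is not given in the sources used here, and the kit named in the labels is not described as a directional one, so MT-ND6 reads and antisense reads of the heavy-strand precursor cannot be told apart.

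**Figure D2:**
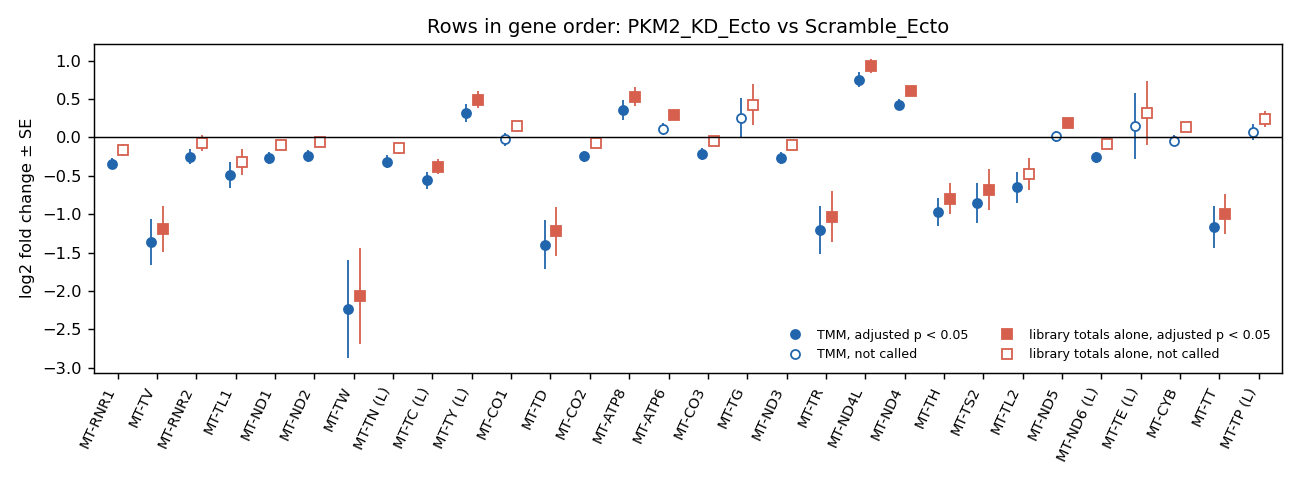
Log2 fold change ± SE of the 30 tested rows in PKM2_KD_Ecto vs Scramble_Ecto, in their order on mitochondrial DNA ((L) marks light-strand rows), with TMM (blue circles) and library totals alone (red squares); filled symbols have an adjusted p under 0.05. MT-ND4L and MT-ND4 stand above 0 with both scalings, between the lower tRNAs MT-TR on one side and MT-TH on the other.

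Both rRNAs come from the start of the heavy-strand transcript, separated by MT-TV, yet they gave different patterns. MT-RNR1, the small-subunit rRNA at chrM:648-1601 on the plus strand, had 517, 532 and 551 CPM in PKM2_KD_Ecto, 655, 700.2 and 676 CPM in Scramble_Ecto and 732, 743 and 667 CPM in Ctrl. MT-RNR2, the large-subunit rRNA at chrM:1671-3229 on the plus strand, had 8062, 7968 and 8296 CPM in PKM2_KD_Ecto, 9341, 10281 and 9375 CPM in Scramble_Ecto and 7825, 7829.7 and 6213 CPM in Ctrl. MT-RNR1 was lowest in the PKM2_KD_Ecto libraries, while MT-RNR2 was highest in the Scramble_Ecto libraries. MT-RNR1 was lower in PKM2_KD_Ecto than in Scramble_Ecto (log2 fold change -0.34, SE 0.08, adjusted p = 0.00235). It missed the threshold there with totals (-0.17, adjusted p = 0.0803). Against Ctrl its fall was 1.34-fold (log2 fold change -0.42, SE 0.08, adjusted p = 0.000791) and was called with totals, with the mitochondrial total and in each fit without a library. MT-RNR2 was lower in PKM2_KD_Ecto than in Scramble_Ecto (log2 fold change -0.25, SE 0.10, adjusted p = 0.0460), but this was called in none of the 6 fits without a library and not with totals (-0.08, adjusted p = 0.529). MT-RNR2 rose in Scramble_Ecto vs Ctrl (log2 fold change 0.41, SE 0.10, adjusted p = 0.00393) with TMM and missed the threshold with totals (0.20, adjusted p = 0.114).

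Within a library the ratio of MT-RNR2 to MT-RNR1 counts was 15.6, 14.97 and 15.1 in PKM2_KD_Ecto, 14.3, 14.7 and 13.9 in Scramble_Ecto and 10.7, 10.5 and 9.32 in Ctrl, so that no groups overlapped and both ectosome groups lay well above Ctrl. The log2 difference was 0.58 in PKM2_KD_Ecto vs Ctrl, 0.49 in Scramble_Ecto vs Ctrl and 0.09 in PKM2_KD_Ecto vs Scramble_Ecto (exact permutation p = 0.1 each), and leaving out any 1 library kept these between 0.52 and 0.62, between 0.43 and 0.53 and between 0.07 and 0.11. The sum of both rRNAs per mRNA count was 0.237, 0.232 and 0.229 in PKM2_KD_Ecto libraries, 0.277, 0.284 and 0.275 in Scramble_Ecto libraries and 0.257, 0.262 and 0.197 in Ctrl libraries. It was lower in PKM2_KD_Ecto than in Scramble_Ecto (log2 difference -0.26, exact permutation p = 0.1). Ctrl replicate 3 was the lowest of all 9, and leaving out a Ctrl library moved the difference between PKM2_KD_Ecto and Ctrl from -0.03 to values of -0.16 to 0.05. The ratios of MT-RNR2 to MT-RNR1, MT-ND4L to MT-ND4 and MT-ATP8 to MT-ATP6 were added after the levels had been seen.

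**Figure D3:**
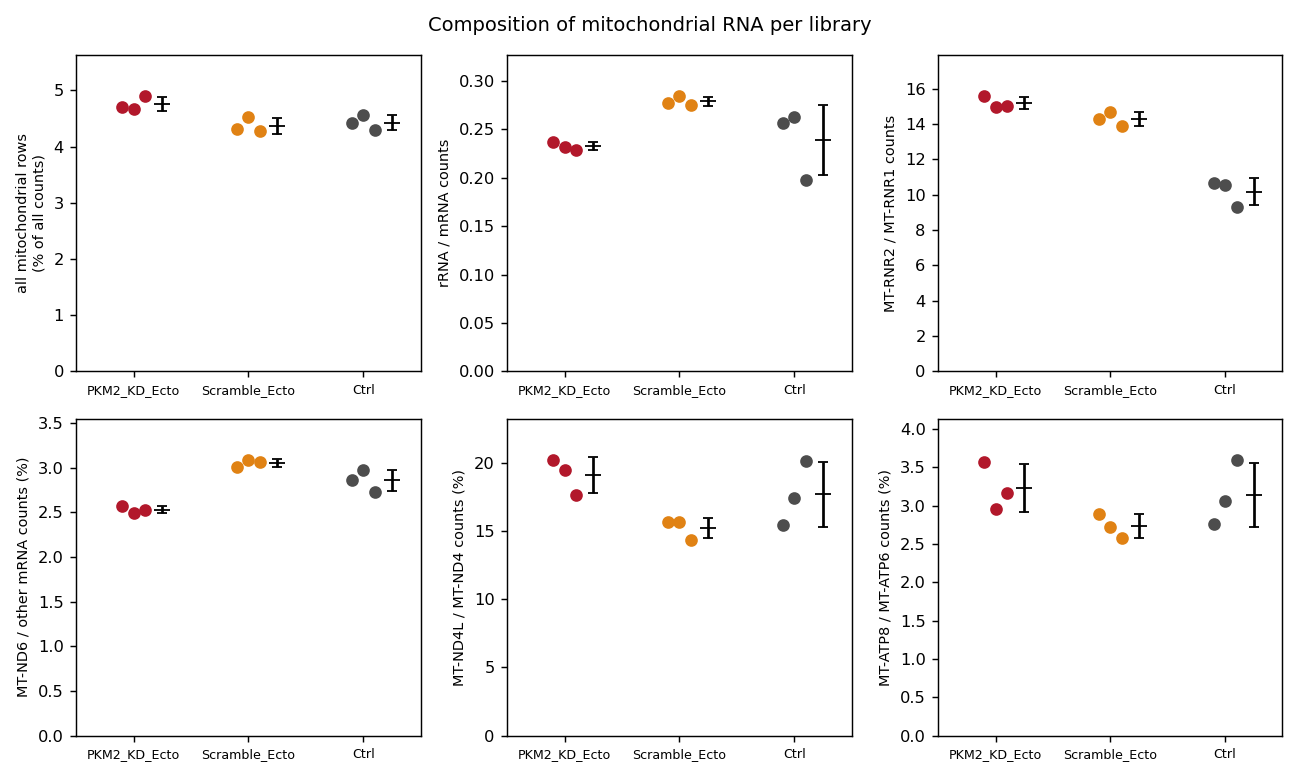
Composition measures in each library, from 0, with points for libraries and bars for the mean ± SD (n = 3), in the order PKM2_KD_Ecto, Scramble_Ecto and Ctrl: the mitochondrial share of counts (%), rRNA per mRNA count, MT-RNR2 per MT-RNR1 count, and MT-ND6 against the other mRNAs, MT-ND4L against MT-ND4 and MT-ATP8 against MT-ATP6 (each in %). The ratio of MT-RNR2 to MT-RNR1 is 13.9 or more in all ectosome libraries and 10.7 or less in the Ctrl libraries.

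The tRNA rows took a small part of the mitochondrial counts, 0.630% ± 0.0223 in PKM2_KD_Ecto, 0.796% ± 0.0335 in Scramble_Ecto and 0.790% ± 0.0663 in Ctrl (SD, n = 3 each), without overlap between PKM2_KD_Ecto and either other group. RNAs this short are usually lost in library preparation, and most rows abut their neighbours, so mature tRNA, uncut precursor and reads spilling over from an adjoining mRNA or rRNA cannot be told apart. In PKM2_KD_Ecto vs Scramble_Ecto, 9 of the 10 tested heavy-strand tRNAs fell and none rose, with a median log2 fold change of -1.07, and 7 fell with totals, beside 30.3% of all rows lower with TMM and 23.5% with totals. MT-TW is 1 of the 9 and also of the 7 with totals, and its value enters the median. It passed the filter on low counts only through libraries of the other groups. Of the 5 tested light-strand tRNAs, 1 rose and 2 fell, beside 31.4% and 30.3% of all rows, with a median of 0.06 that lay between -0.27 and 0.01 when 1 library was left out and 5 or 6 rows could be tested. The difference between the strands was not tested.

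**Figure D4:**
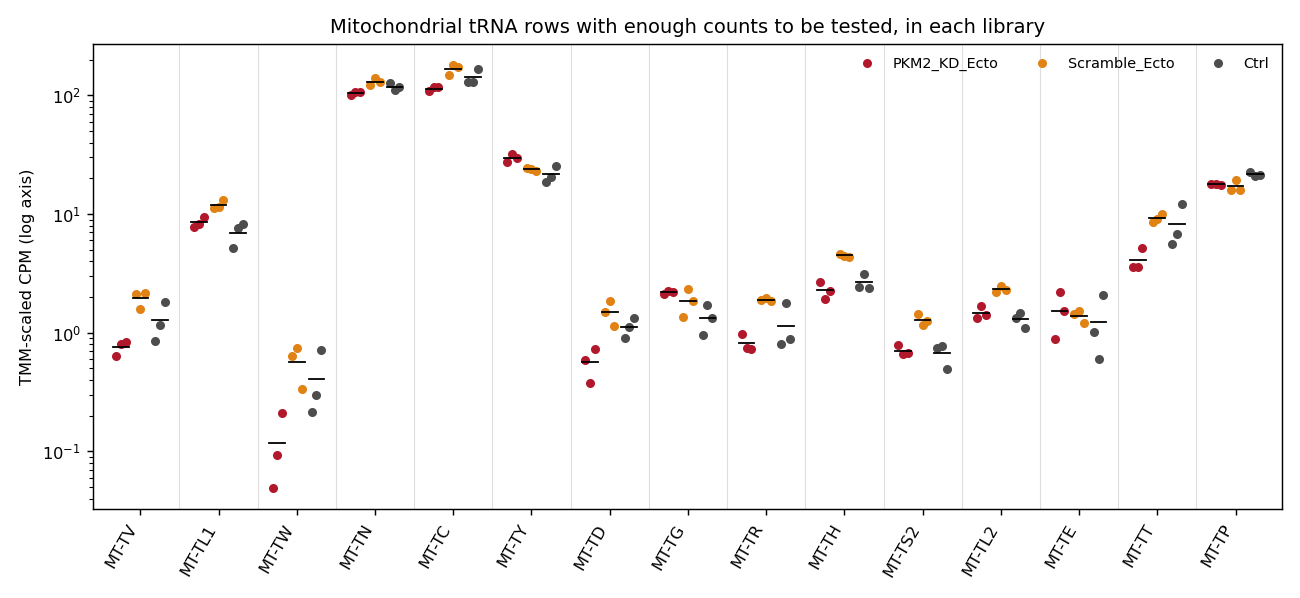
TMM-scaled level (CPM, log axis) of the 15 tested tRNA rows in each library, in the order PKM2_KD_Ecto, Scramble_Ecto and Ctrl; points are libraries and black bars are group means. Heavy-strand tRNAs such as MT-TV, MT-TD, MT-TH and MT-TT are lower in the PKM2_KD_Ecto libraries than in every Scramble_Ecto library, and MT-TY is higher.

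MT-TR and MT-TH, the arginine and histidine tRNAs, flank MT-ND4L and MT-ND4 in the genome, MT-TR before and MT-TH after them, without a gap. MT-TR had 0.982, 0.750 and 0.734 CPM in PKM2_KD_Ecto, 1.896, 1.95 and 1.87 CPM in Scramble_Ecto and 0.799, 1.76 and 0.883 CPM in Ctrl. MT-TH had 2.699, 1.92 and 2.25 CPM in PKM2_KD_Ecto, 4.65, 4.48 and 4.36 CPM in Scramble_Ecto and 2.45, 3.14 and 2.37 CPM in Ctrl. With TMM both were thus highest in all 3 Scramble_Ecto libraries, in contrast to the mRNA between them. With library totals MT-TR was highest in Ctrl replicate 2, at 1.94 CPM, against 1.76, 1.77 and 1.70 CPM in Scramble_Ecto. MT-TR was 2.31-fold lower in PKM2_KD_Ecto than in Scramble_Ecto (log2 fold change -1.20, SE 0.31, adjusted p = 0.00636). MT-TH was 1.96-fold lower (log2 fold change -0.97, SE 0.19, adjusted p = 0.00101). Against Ctrl, MT-TH was 1.68-fold higher in Scramble_Ecto (log2 fold change 0.75, SE 0.18, adjusted p = 0.00388), and MT-TR missed the threshold there (log2 fold change 0.70, SE 0.30, adjusted p = 0.0585).

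The serine tRNA MT-TS2 and the leucine tRNA MT-TL2, printed above with MT-TH, moved in the same directions, at very low counts. MT-TS2 had 16, 14 and 13 counts in PKM2_KD_Ecto, 32, 22 and 26 counts in Scramble_Ecto and 14, 18 and 9 counts in Ctrl. MT-TL2 had 27, 36 and 27 counts in PKM2_KD_Ecto, 49, 47 and 48 counts in Scramble_Ecto and 25, 34 and 20 counts in Ctrl. Both rose in Scramble_Ecto vs Ctrl, MT-TS2 1.89-fold (log2 fold change 0.92, SE 0.26, adjusted p = 0.00930) and MT-TL2 1.78-fold (log2 fold change 0.83, SE 0.21, adjusted p = 0.00421). Both fell in PKM2_KD_Ecto vs Scramble_Ecto, by 0.86 (adjusted p = 0.0144) and by 0.65 (adjusted p = 0.0162) on the log2 scale. The fall of MT-TS2 was called with totals (adjusted p = 0.0459) and in 4 of 6 fits without a library. That of MT-TL2 missed the threshold with totals (-0.48, adjusted p = 0.0655) and was called in 3 of 6. The rises of MT-TH, MT-TS2, MT-TL2, MT-TL1 and MT-ND1 in Scramble_Ecto vs Ctrl were called with TMM, with totals and with the mitochondrial total, and in each of the 6 fits without a library. MT-TL1, the leucine tRNA that follows MT-RNR2, had 7.85, 8.299 and 9.49 CPM in PKM2_KD_Ecto, 11.2, 11.6 and 13.2 CPM in Scramble_Ecto and 5.17, 7.62 and 8.17 CPM in Ctrl and was 1.72-fold higher in Scramble_Ecto than in Ctrl (log2 fold change 0.78, SE 0.17, adjusted p = 0.00192). In PKM2_KD_Ecto it was lower than in Scramble_Ecto by 0.49 on the log2 scale (adjusted p = 0.0255), and not called with totals.

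The largest falls in PKM2_KD_Ecto vs Scramble_Ecto were in tRNAs with few counts. MT-TV, the valine tRNA between the rRNAs, had 13, 17 and 16 counts in PKM2_KD_Ecto, 47, 30 and 45 counts in Scramble_Ecto and 16, 27 and 33 counts in Ctrl. MT-TD, the aspartate tRNA before MT-CO2, had 12, 8 and 14 counts in PKM2_KD_Ecto, 33, 35 and 24 counts in Scramble_Ecto and 17, 26 and 24 counts in Ctrl. MT-TW, the tryptophan tRNA after MT-ND2, had 1, 2 and 4 counts in PKM2_KD_Ecto, 14, 14 and 7 counts in Scramble_Ecto and 4, 7 and 13 counts in Ctrl. For each of these rows every PKM2_KD_Ecto library was below every Scramble_Ecto library. MT-TV was 2.57-fold lower in PKM2_KD_Ecto than in Scramble_Ecto (log2 fold change -1.36, SE 0.30, adjusted p = 0.00265). MT-TD was 2.63-fold lower (log2 fold change -1.40, SE 0.32, adjusted p = 0.00290). For MT-TW the counts are given with no fold change or test, because of the filter. Against Ctrl, MT-TD fell (log2 fold change -0.98, SE 0.33, adjusted p = 0.0266) and MT-TV did not pass (log2 fold change -0.74, SE 0.32, adjusted p = 0.0719). The fall of MT-TD was called in only 2 of 6 fits without a library, and not without Ctrl replicate 3.

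MT-TT, the threonine tRNA after MT-CYB, had 3.58, 3.56 and 5.19 CPM in PKM2_KD_Ecto, 8.62, 9.11 and 9.92 CPM in Scramble_Ecto and 5.65, 6.84 and 12.3 CPM in Ctrl. The PKM2_KD_Ecto libraries were the 3 lowest, while the Ctrl libraries spanned a range wider than Scramble_Ecto. MT-TT was 2.24-fold lower in PKM2_KD_Ecto than in Scramble_Ecto (log2 fold change -1.17, SE 0.27, adjusted p = 0.00339). Its level was 2.002-fold lower than in Ctrl (log2 fold change -1.002, SE 0.27, adjusted p = 0.00987). The fall from Ctrl was called in all 6 fits without a library but ranged from -1.21 to -0.62, the smallest being without Ctrl replicate 3. MT-TG, the glycine tRNA after MT-CO3, was the one tested heavy-strand tRNA that did not fall against Scramble_Ecto. It had 43, 48 and 42 counts in PKM2_KD_Ecto, 30, 44 and 39 counts in Scramble_Ecto and 18, 40 and 24 counts in Ctrl. Its rise against Ctrl (log2 fold change 0.70, SE 0.27, adjusted p = 0.0477) missed the threshold with totals (adjusted p = 0.0624) and remained in 1 of 6 fits without a library.

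Among the light-strand tRNAs, the neighbours MT-TY and MT-TC moved in opposite directions. MT-TY had 27.5, 32.02 and 29.7 CPM in PKM2_KD_Ecto, 24.6, 23.9 and 23.1 CPM in Scramble_Ecto and 18.6, 20.6 and 25.6 CPM in Ctrl. MT-TC had 108, 117 and 117 CPM in PKM2_KD_Ecto, 149.9, 179.9 and 175 CPM in Scramble_Ecto and 129, 131 and 167 CPM in Ctrl. MT-TY was highest and MT-TC lowest in the 3 PKM2_KD_Ecto libraries. MT-TY was higher in PKM2_KD_Ecto than in Scramble_Ecto (log2 fold change 0.32, SE 0.12, adjusted p = 0.0375), called in 1 of 6 fits without a library, and higher than in Ctrl (log2 fold change 0.46, SE 0.12, adjusted p = 0.00752), called in all 6. MT-TC was lower in PKM2_KD_Ecto than in Scramble_Ecto (log2 fold change -0.56, SE 0.11, adjusted p = 0.00131), called in all 6, and lower than in Ctrl (log2 fold change -0.32, SE 0.11, adjusted p = 0.0331), called in 3. The asparagine tRNA MT-TN, next to MT-TC, had 101, 107 and 107 CPM in PKM2_KD_Ecto, 121, 141 and 129.8 CPM in Scramble_Ecto and 127, 111 and 117 CPM in Ctrl and fell in PKM2_KD_Ecto vs Scramble_Ecto with TMM (log2 fold change -0.32, SE 0.08, adjusted p = 0.00687). This fall of MT-TN was not called with totals (-0.14, adjusted p = 0.123). MT-TP, the proline tRNA, had 18.01, 18.1 and 17.5 CPM in PKM2_KD_Ecto, 15.98, 19.4 and 15.96 CPM in Scramble_Ecto and 22.5, 20.9 and 21.4 CPM in Ctrl. It was lower than Ctrl in PKM2_KD_Ecto (log2 fold change -0.27, SE 0.10, adjusted p = 0.0430), called in 1 of 6 fits without a library. It was also lower than Ctrl in Scramble_Ecto (log2 fold change -0.34, SE 0.10, adjusted p = 0.0129), called in 4 of 6. MT-TE, the glutamate tRNA, had 18, 47 and 29 counts in PKM2_KD_Ecto, 32, 29 and 25 counts in Scramble_Ecto and 19, 14 and 38 counts in Ctrl and passed in no comparison with all 9 libraries (0.15 in PKM2_KD_Ecto vs Scramble_Ecto, adjusted p = 0.779). Without Ctrl replicate 3 it rose in PKM2_KD_Ecto vs Ctrl (adjusted p = 0.0376). Reads of opposite strands cannot be told apart here either.

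**Figure D5:**
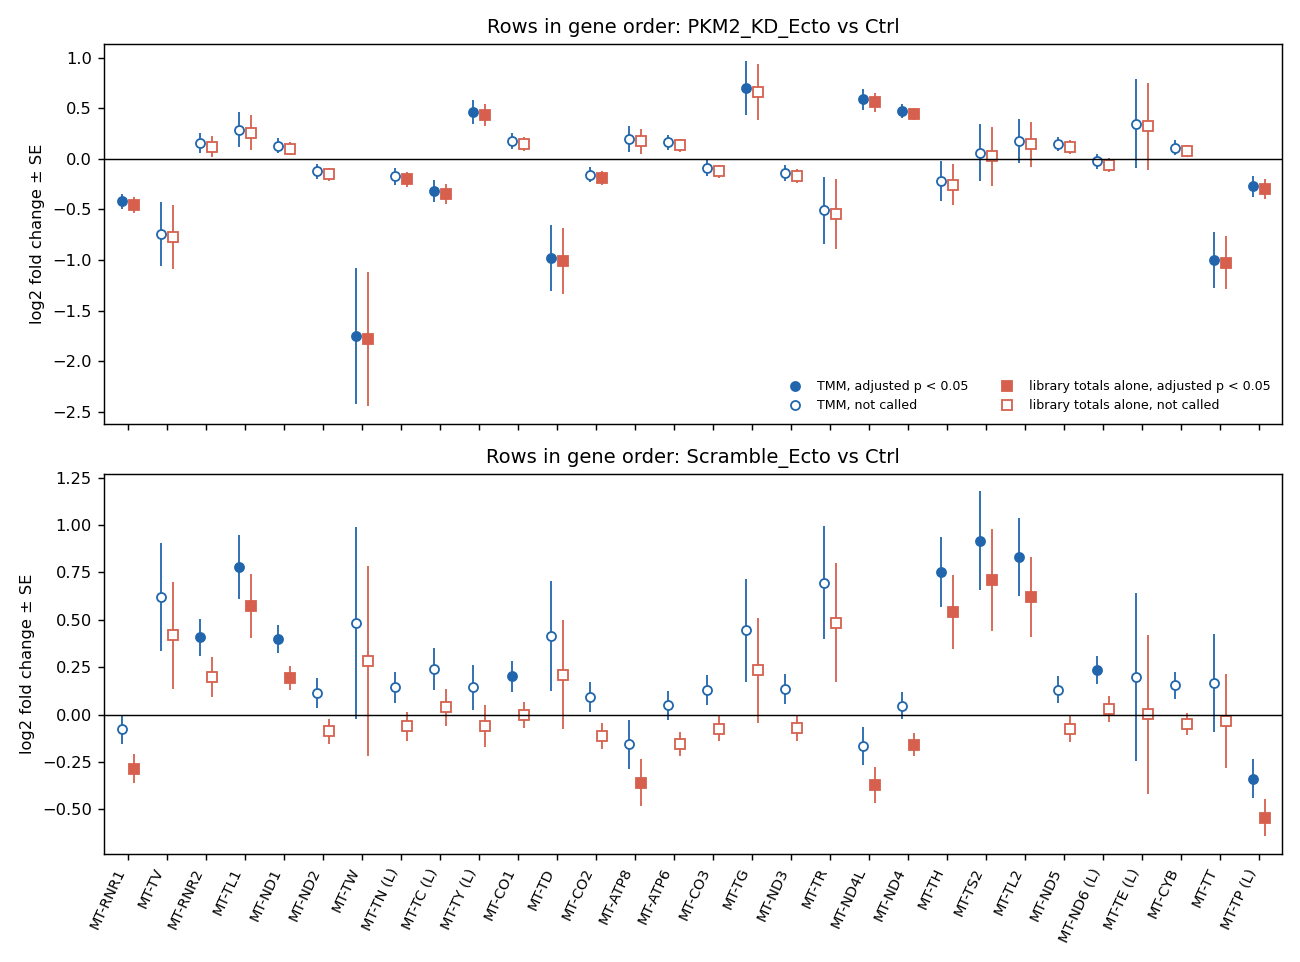
Log2 fold change ± SE of the 30 tested rows, in genome order ((L) marks light-strand rows), in PKM2_KD_Ecto vs Ctrl (upper panel) and Scramble_Ecto vs Ctrl (lower panel), with TMM (blue circles) and library totals alone (red squares); filled symbols have an adjusted p under 0.05. MT-ND4L, MT-ND4 and MT-TY are filled above 0 in the upper panel with both scalings, and in the lower panel the totals lie about 0.20 below the TMM values.

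Scaling each library to its mitochondrial total shows the rows relative to each other, and called 4 higher and 17 lower in PKM2_KD_Ecto vs Scramble_Ecto (32.9% and 27.8% of all rows). It called 3 higher and 12 lower in PKM2_KD_Ecto vs Ctrl (21.9% and 33.4%), and 5 higher and 4 lower in Scramble_Ecto vs Ctrl (28.1% and 40.1%). Some rows were called alike with TMM, with library totals and with the mitochondrial total. In PKM2_KD_Ecto vs Scramble_Ecto these were 4 rises, MT-ND4L, MT-ND4, MT-ATP8 and MT-TY, and 8 falls, all in tRNAs (MT-TV, MT-TW, MT-TC, MT-TD, MT-TR, MT-TH, MT-TS2 and MT-TT). Of them, 2 rises (MT-ND4L and MT-ND4) and 7 falls (those other than MT-TS2) were also called in every fit without a library. MT-TW is counted in both numbers of falls. It passed the filter on low counts only through libraries of the other groups, so its calls carry no weight. In PKM2_KD_Ecto vs Ctrl the rows called alike were 3 rises, MT-ND4L, MT-ND4 and MT-TY, all in every fit without a library. There were also 6 falls, MT-TW again among them with the same limit, of which MT-RNR1 and MT-TT were in every such fit. Scramble_Ecto vs Ctrl had 5 such rises, named above, and 1 fall, MT-TP, which was not called in every fit without a library.

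Nuclear DNA holds old copies of mitochondrial genes, which can take up mitochondrial reads or give some to them. The table has 76 rows of such copies, holding 10032 to 11389 counts in a library, or 1.05 to 1.32% of the mitochondrial counts, and 9 of them could be tested. MTND2P28, MTATP6P1 and MTCO1P12, all in 1 stretch of chromosome 1 and 98.4%, 98.5% and 98.6% identical to MT-ND2, MT-ATP6 and MT-CO1, held 97.4% of these counts. None of the 3 was called with TMM in any comparison, the largest change being that of MTATP6P1 in Scramble_Ecto vs Ctrl (log2 fold change -0.22, SE 0.10, adjusted p = 0.0752). With library totals all 3 fell in Scramble_Ecto vs Ctrl, beside 41.4% of all rows. The changes were -0.20 for MTND2P28 (adjusted p = 0.0209), -0.42 for MTATP6P1 (adjusted p = 0.0022) and -0.34 for MTCO1P12 (adjusted p = 0.0054). In PKM2_KD_Ecto vs Scramble_Ecto totals gave rises of MTATP6P1 (0.28, adjusted p = 0.0231) and MTCO1P12 (0.36, adjusted p = 0.0051), beside 38.2%. MTND2P28 did not pass there, nor did any of the 3 in PKM2_KD_Ecto vs Ctrl. How reads that match several places were counted is not given in the sources used here.

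Mitochondrial RNA is made, cut, protected and translated by nuclear-encoded factors, and 48 of these were examined. In PKM2_KD_Ecto vs Scramble_Ecto 8 rose and 19 fell with TMM, against 31.4% and 30.3% of all rows, with a median of -0.17. With totals 13 rose and 14 fell there, against 38.2% and 23.5%. In PKM2_KD_Ecto vs Ctrl 4 rose and 29 fell, against 27.0% and 26.7%, with a median of -0.37. With totals 4 rose and 30 fell there, against 25.5% and 28.6%. In Scramble_Ecto vs Ctrl 9 rose and 22 fell, against 34.6% and 33.2%, with a median of -0.17. With totals 5 rose and 29 fell there, against 27.8% and 41.4%. Leaving out 1 library left 2 to 6 rises and 16 to 19 falls in PKM2_KD_Ecto vs Scramble_Ecto, against 27.0% to 28.2% and 26.4% to 27.2% of all rows. Without Ctrl replicate 3 the rises in Scramble_Ecto vs Ctrl numbered 13, against 36.9%. Of 6 genes for mitochondrial RNA stability and decay, 5 fell in PKM2_KD_Ecto vs Scramble_Ecto and 3 with totals, beside 30.3% and 23.5% of all rows. SUPV3L1, the helicase of the mitochondrial RNA degradosome, averaged 17.4 ± 1.25 CPM in PKM2_KD_Ecto, 31.8 ± 1.49 in Scramble_Ecto and 27.5 ± 2.19 in Ctrl (SD, n = 3 each), a fall from Scramble_Ecto with both scalings (log2 fold change -0.87, SE 0.10, adjusted p = 2.25e-05). LRPPRC, which binds and stabilises mitochondrial mRNAs, averaged 216 ± 0.918 CPM in PKM2_KD_Ecto, 256 ± 3.63 in Scramble_Ecto and 399.8 ± 25.6 in Ctrl. It was lower than Ctrl in PKM2_KD_Ecto (log2 fold change -0.89, SE 0.07, adjusted p = 3.46e-06) and likewise in Scramble_Ecto (log2 fold change -0.64, SE 0.07, adjusted p = 1.68e-05). PNPT1, the exoribonuclease partner of SUPV3L1, went the other way against Ctrl in PKM2_KD_Ecto (log2 fold change 0.50, SE 0.09, adjusted p = 0.000953) and in Scramble_Ecto (log2 fold change 0.66, SE 0.09, adjusted p = 9.06e-05).

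Of 12 RNA processing factors, 2 rose and 4 fell in PKM2_KD_Ecto vs Scramble_Ecto, beside 31.4% and 30.3% of all rows. When 1 library was left out 0 to 1 rose and 3 to 4 fell, beside 27.0% to 28.2% and 26.4% to 27.2%. FASTKD5, which acts on mitochondrial mRNA ends that no tRNA marks, averaged 14.1 ± 1.62 CPM in PKM2_KD_Ecto, 28.7 ± 0.911 in Scramble_Ecto and 13.1 ± 2.29 in Ctrl. It was lower in PKM2_KD_Ecto than in Scramble_Ecto (log2 fold change -1.02, SE 0.13, adjusted p = 6.99e-05) and higher in Scramble_Ecto than in Ctrl (log2 fold change 1.14, SE 0.13, adjusted p = 2.35e-05). MTPAP, the mitochondrial poly(A) polymerase, was lower in PKM2_KD_Ecto than in Scramble_Ecto (log2 fold change -0.60, SE 0.10, adjusted p = 0.000334) and than in Ctrl (log2 fold change -0.74, SE 0.10, adjusted p = 0.000100). KIAA0391, the older symbol in the table for PRORP, the nuclease that cuts tRNA 5′ ends, was higher than Ctrl in PKM2_KD_Ecto (log2 fold change 0.90, SE 0.11, adjusted p = 5.84e-05) and in Scramble_Ecto (log2 fold change 0.75, SE 0.11, adjusted p = 0.000125).

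Of 11 transcription and replication factors, 2 rose and 4 fell in PKM2_KD_Ecto vs Scramble_Ecto, beside 31.4% and 30.3% of all rows. When 1 library was left out 1 to 2 rose and 2 to 4 fell, beside 27.0% to 28.2% and 26.4% to 27.2%. TFAM, which packages mitochondrial DNA and starts its transcription, averaged 45.3 ± 1.16 CPM in PKM2_KD_Ecto, 66.4 ± 1.09 in Scramble_Ecto and 64.03 ± 10.8 in Ctrl. TFAM was lower in PKM2_KD_Ecto than in Scramble_Ecto (log2 fold change -0.55, SE 0.11, adjusted p = 0.00102) and than in Ctrl (log2 fold change -0.50, SE 0.11, adjusted p = 0.00241). TOP1MT, the mitochondrial topoisomerase, averaged 49.5 ± 2.02 CPM in PKM2_KD_Ecto, 62.1 ± 3.95 in Scramble_Ecto and 128 ± 17.3 in Ctrl. It fell against Ctrl in both ectosome groups (log2 fold change -1.37, SE 0.10, adjusted p = 1.71e-06 in PKM2_KD_Ecto). Of 9 genes for rRNA modification and ribosome assembly, 8 fell and none rose in PKM2_KD_Ecto vs Ctrl, beside 26.7% and 27.0% of all rows. NSUN4, a methyltransferase that acts on MT-RNR1 and in ribosome assembly, averaged 53.4 ± 1.79 CPM in PKM2_KD_Ecto and 102 ± 4.17 in Scramble_Ecto (log2 fold change -0.94, SE 0.08, adjusted p = 3.12e-06). TFB1M, which methylates MT-RNR1, averaged 10.5 ± 0.363 CPM in PKM2_KD_Ecto, 4.33 ± 0.430 in Scramble_Ecto and 13.7 ± 1.81 in Ctrl. It was higher in PKM2_KD_Ecto than in Scramble_Ecto (log2 fold change 1.28, SE 0.14, adjusted p = 1.79e-05) and lower in Scramble_Ecto than in Ctrl (log2 fold change -1.66, SE 0.14, adjusted p = 1.49e-06).

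The partners of the mitochondrially encoded proteins in complexes I, III and IV and the ATP synthase are nuclear genes, of which 71 were examined. With TMM 9 rose and 20 fell in PKM2_KD_Ecto vs Scramble_Ecto, beside 31.4% and 30.3% of all rows, with a median of -0.05. With totals 20 rose and 16 fell, beside 38.2% and 23.5%, with a median of 0.12. In PKM2_KD_Ecto vs Ctrl 3 rose and 41 fell, beside 27.0% and 26.7% of all rows, and with totals 3 and 48, beside 25.5% and 28.6%. In Scramble_Ecto vs Ctrl 9 rose and 35 fell, beside 34.6% and 33.2%, and with totals 4 and 47, beside 27.8% and 41.4%. The medians against Ctrl were -0.36 in PKM2_KD_Ecto and -0.26 in Scramble_Ecto, against 0.13 in each for the 13 mitochondrial mRNAs. Without Ctrl replicate 3 the medians of the nuclear genes were -0.23 and -0.16. There were 41 and 33 falls in that fit, beside 28.6% and 34.7% of all rows, and 14 rises in Scramble_Ecto, beside 36.9%. The falls numbered 25 in PKM2_KD_Ecto without its replicate 2, beside 20.9% of all rows. They numbered 19 in Scramble_Ecto without its replicate 1, beside 29.5%. With totals the medians were -0.39 and -0.46, against 0.10 and -0.08 for the mitochondrial mRNAs. Among 37 complex I subunits, NDUFS3 averaged 38.8 ± 3.91 CPM in PKM2_KD_Ecto and 75.99 ± 11.2 in Ctrl (log2 fold change -0.97, SE 0.12, adjusted p = 6.23e-05), so the nuclear and the mitochondrial mRNAs of this complex included changes in opposite directions. NDUFV1, the flavin-binding subunit, averaged 125 ± 11.2 CPM in PKM2_KD_Ecto, 65.2 ± 1.89 in Scramble_Ecto and 192 ± 19.5 in Ctrl. NDUFV1 was higher in PKM2_KD_Ecto than in Scramble_Ecto (log2 fold change 0.94, SE 0.10, adjusted p = 1.21e-05) and lower in Scramble_Ecto than in Ctrl (log2 fold change -1.56, SE 0.10, adjusted p = 1.80e-07). COX5B of complex IV averaged 86.5 ± 3.37 CPM in PKM2_KD_Ecto, 65.8 ± 5.14 in Scramble_Ecto and 116 ± 5.61 in Ctrl, in the same order as NDUFV1 (log2 fold change -0.82, SE 0.08, adjusted p = 5.76e-06 in Scramble_Ecto vs Ctrl).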

How the data were processed

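RNA of 9 THP-1 libraries in 3 groups of 3 was sequenced on an Illumina HiSeq, per the labels' protocols. The deposited table holds whole-number read counts per gene for 30000 rows. HISAT2 2.0.5 and featureCounts 1.5.0-p3 and the GRCh38 (hg38) build are named, per the submitters' processing notes, without the settings for strand, multi-mapping and overlapping reads. Gene positions and sequences came from GENCODE release 29 on GRCh38.

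Counts were fitted with edgeR 4.0.16 (R 4.3.3) by glmQLFit and glmQLFTest over all 9 libraries, with TMM factors and filterByExpr (18437 rows, at least 99.8% of counts kept), 6 residual degrees of freedom and Benjamini-Hochberg adjustment over all rows. SE is the log2 fold change divided by the root of F. Fold changes have the first-named group on top. Single values were compared by exact two-sided permutation. The fit was tested on simulated data. Alternatives were library totals, DESeq2 1.42.0 size factors and Wald test, totals of mitochondrial or other rows, no filter, 2 groups alone, a replicate block and leaving out each library. Every MT- row could be named, up to 3 nuclear copies with the highest counts, and up to 4 genes of a list with the smallest p. The members, gene lists and tests were chosen with earlier results of these data known, and 3 count ratios were added after the levels were seen. Depth was 17744587 to 23864381 counts a library.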

Additional observations from a re-analysis of the deposited data

Results flagged for a closer look

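MTRNR2L8, a nuclear gene on chromosome 11 whose sequence resembles MT-RNR2, stood out in rows that the comparisons of mitochondrial genes do not use, with a level above that of the Ctrl libraries in both ectosome groups. It was chosen after its values were seen. It had 82, 69 and 51 counts in PKM2_KD_Ecto libraries, 23, 16 and 13 counts in Scramble_Ecto libraries and 2, 3 and 3 counts in Ctrl libraries, with no overlap between groups. The row passed the filter on low counts only through the ectosome groups, so its fitted log2 fold changes, 4.58 in PKM2_KD_Ecto vs Ctrl and 2.597 in Scramble_Ecto vs Ctrl, are given as a description with no test. MT-RNR2 itself gave no such order, and whether the reads of MTRNR2L8 came from this gene or from MT-RNR2 was not tested.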

How the results depend on the processing

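Of 1258 values of single rows under the alternatives, 1092 stayed on their side of the threshold, 118 lost their call, 44 gained one, and 4 reversed. Of the 1092, 55 changed sign without being called, with sizes of at most 0.21. The reversed ones, all in Scramble_Ecto vs Ctrl, were MT-CO1 with library totals (-0.00198) and with totals of the rows that are not mitochondrial (-0.00274), and MT-ND4 with both (-0.16 each). With library totals, and likewise with totals of the rows that are not mitochondrial, 5 rows were higher and 5 lower in Scramble_Ecto vs Ctrl and 8 lower in PKM2_KD_Ecto vs Scramble_Ecto. Of all rows, 27.8% were higher and 41.4% lower with either in the first comparison, and 23.5% and 23.3% lower in the second. With the mitochondrial total 5 were higher and 4 lower in Scramble_Ecto vs Ctrl, beside 28.1% and 40.1% of all rows. In PKM2_KD_Ecto vs Ctrl 12 were lower with it, beside 33.4%. Leaving out 1 library gave 2 to 3 higher and 12 to 17 lower in PKM2_KD_Ecto vs Scramble_Ecto, 3 to 9 higher (9 without Ctrl replicate 3) and 2 to 6 lower (2 without PKM2_KD_Ecto replicate 1 or 2) in PKM2_KD_Ecto vs Ctrl, and 6 to 16 higher (16 without Ctrl replicate 3) and 0 to 1 lower (0 without Scramble_Ecto replicate 1 or 3) in Scramble_Ecto vs Ctrl. Of all rows, 27.0% to 28.2% were higher and 26.4% to 27.2% lower in those fits of PKM2_KD_Ecto vs Scramble_Ecto. The shares were 23.1% to 29.1% and 20.9% to 28.6% in PKM2_KD_Ecto vs Ctrl. In Scramble_Ecto vs Ctrl they were 31.2% to 36.9% and 29.5% to 34.7%. The difference in mitochondrial share ranged from 0.313 to 0.465 percentage points in PKM2_KD_Ecto vs Scramble_Ecto, from 0.260 to 0.397 in PKM2_KD_Ecto vs Ctrl and from -0.133 to 0.0124 (without Ctrl replicate 2) in Scramble_Ecto vs Ctrl. The log2 difference in rRNA per mRNA ranged from -0.16 to 0.05 in PKM2_KD_Ecto vs Ctrl, being 0.03 without Ctrl replicate 1 and 0.0472 without Ctrl replicate 2, and that in MT-ATP8 per MT-ATP6 from -0.0423 (without Ctrl replicate 1; -0.03 without PKM2_KD_Ecto replicate 1) to 0.15. The cause of these changes was not tested.

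No pairing by replicate number was seen: same-numbered libraries correlated by -0.094 to 0.067, and differently numbered ones by -0.071 to 0.071. With 3 libraries a group these values cannot exclude a pairing. With the replicate number as a block 2 rows were higher in PKM2_KD_Ecto vs Scramble_Ecto and 3 lower in PKM2_KD_Ecto vs Ctrl. Depth limits the tRNA rows, of which 7 had at most 12 counts in a library, and counting error alone is large for MT-TW.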

Other observations

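Of 7 nuclear regulators of mitochondrial genes, 6 could be tested. In PKM2_KD_Ecto vs Scramble_Ecto 1 rose and 4 fell, beside 31.4% and 30.3% of all rows, and in Scramble_Ecto vs Ctrl 3 rose and 1 fell, beside 34.6% and 33.2% (edgeR quasi-likelihood test, adjusted p under 0.05). NRF1, a transcription factor for nuclear genes of mitochondrial function, averaged 13.9 ± 1.18 CPM in PKM2_KD_Ecto, 29.95 ± 1.92 in Scramble_Ecto and 19.7 ± 2.82 in Ctrl (log2 fold change -1.10, SE 0.12, adjusted p = 1.94e-05 in PKM2_KD_Ecto vs Scramble_Ecto). ESRRA, a nuclear receptor with targets in energy metabolism, averaged 67.9 ± 5.58 CPM in PKM2_KD_Ecto, 129 ± 0.857 in Scramble_Ecto and 80.4 ± 4.72 in Ctrl (log2 fold change 0.69, SE 0.08, adjusted p = 2.18e-05 in Scramble_Ecto vs Ctrl). PPARGC1B, a coactivator of such factors, went the other way, at 17.3 ± 1.11 CPM in PKM2_KD_Ecto, 5.03 ± 1.01 in Scramble_Ecto and 25.1 ± 10.9 in Ctrl (log2 fold change -2.31, SE 0.27, adjusted p = 2.28e-05 in Scramble_Ecto vs Ctrl).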
